A study of Mus musculus with 6 samples.

Results

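The early genes that a T cell switches on after its antigen receptor is engaged were examined here in CD4+YFP+ T cells of mouse lymph nodes, together with the activation marker Cd83. The set holds 10 genes of the 13280 measured: Egr1, Egr2, Egr3, Nr4a1, Nr4a2, Nr4a3, Npas4, Cd83, Cd69 and Nab2. Every probe set with one of these names as its single gene symbol in the platform annotation was taken, which gave 19 probe sets, and 6 of the 10 genes had 1 probe set each. The genes were chosen from this contrast with their values already known, so the differences between the genotypes are given for them as a description and without a p-value. Of the 19 probe sets, 16 passed a filter on dim signals (a log2 intensity above 4 on at least 3 of the 6 arrays), and the remaining 3 are 1 of Nr4a2 and 2 of Nr4a3.

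Cells labelled KO, in which Cre acts on both copies of Dicer, came from FoxP3-GFP-hCre mice with the ROSA26R-YFP reporter and a Dicer lox/lox genotype, and their controls, labelled Het, came from mice with the same Cre and reporter and a Dicer wt/lox genotype. Cre is driven by Foxp3, the lineage gene of regulatory T cells, and the reporter keeps YFP on once Cre has cut it, so the sorted cells include those that once expressed Foxp3. Cre and a lox copy of Dicer are present in the Het cells too. Each group has 3 arrays, lettered A, B and C, which the labels do not name as separate animals, so the spread between arrays may be technical. No age of the animals is stated in the labels. Of the 2 Dicer1 probe sets, one read 1029 to 1187 in KO and 1059 to 1203 in Het, and the other 709 to 976 in KO and 1120 to 1345 in Het. Where they lie relative to the deleted part is unknown, so they do not check the genotypes. The values are array intensities normalized by the authors with GCRMA, and each difference is the mean log2 value in KO minus that in Het. A bulk RNA level cannot tell fewer expressing cells from less RNA per cell.

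Engagement of the T cell receptor activates ERK kinases, calcium signals and protein kinase C, and within minutes these switch on genes that need no new protein. The Egr genes encode zinc finger transcription factors, the Nr4a genes encode orphan nuclear receptors, and Cd69 encodes a surface protein that holds activated lymphocytes in tissue. In T cells Egr2 and Egr3 are known for restraining responses, and Nr4a factors for sustaining regulatory T cells. Dicer makes mature microRNAs, which lower the stability and translation of messenger RNAs.

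The members did not move as 1 block. On the probe set with the highest mean for each gene, every KO array lay below every Het array for 5 of the 10 genes (Egr2, Egr3, Nab2, Npas4 and Cd83). Every KO array lay above every Het array for Cd69, and the groups overlapped for Egr1, Nr4a1, Nr4a2 and Nr4a3. Of the 16 tested probe sets 7 were separated in the lower direction and 1 in the higher, while 14.9% and 11.3% of all 29507 tested probe sets were separated in these directions (26.2% in either). In the fit over all probe sets, 4 of the 16 had an adjusted p under 0.05 (limma), all lower in KO, against 0.668% of all probe sets called lower and 1.78% called in either direction. These were the brightest probe sets of Egr2, Egr3, Npas4 and Cd83, and since the genes were picked with these values known, this count is a description and no test of them. The median difference over the 10 genes was -0.44, against -0.03 over all genes. The count rests on all 6 arrays: 2 remained without KO A (Npas4 and Cd83), 1 without Het A (Npas4) and 0 without any of the other arrays, where 7 or 8 had an unadjusted p under 0.05.

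**Figure D1:**
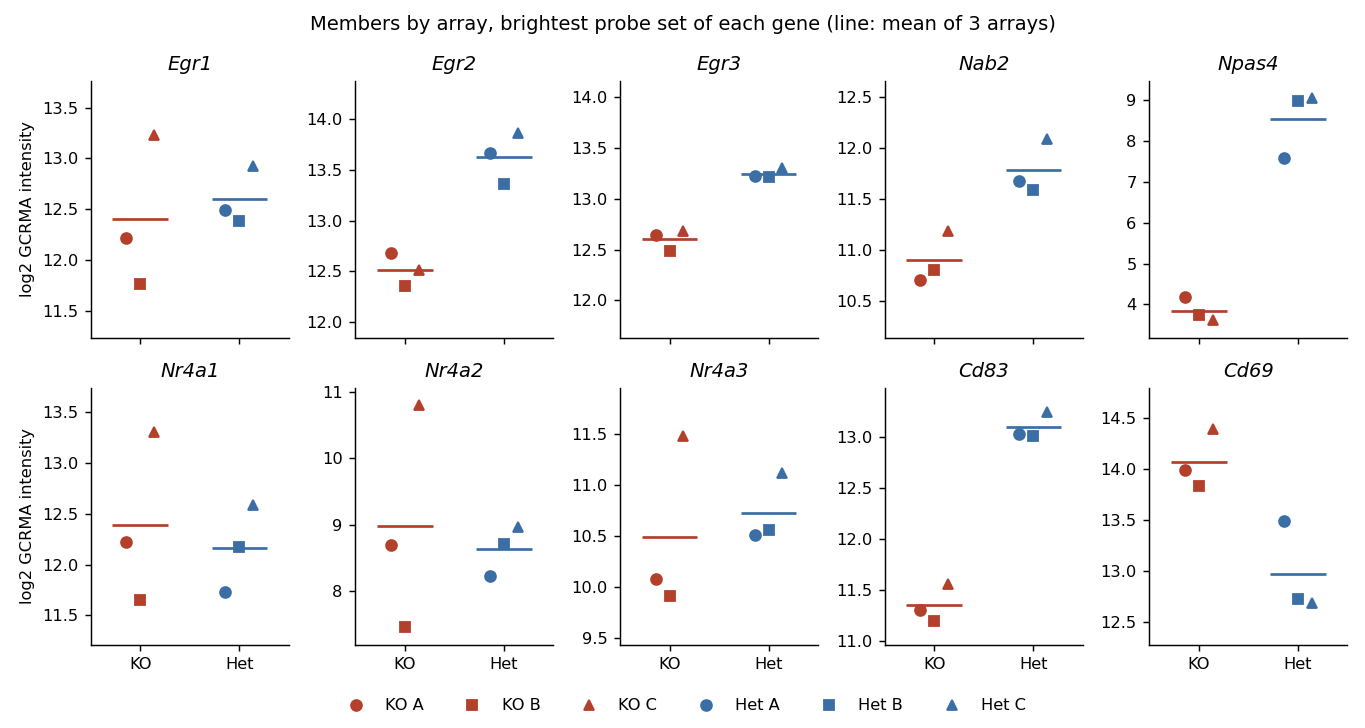
Log2 GCRMA intensity of the brightest probe set of each member (vertical axes, each spanning its own range) on the 3 KO arrays and the 3 Het arrays, with circles for A, squares for B and triangles for C and a line at each group's mean. KO and Het points are separated for Egr2, Egr3, Nab2, Npas4, Cd83 and Cd69. KO C is the highest of all 6 arrays for Egr1, the 3 Nr4a genes and Cd69.

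Egr2 read 6564, 5239 and 5829 in KO A, B and C and 12979, 10506 and 14845 in Het A, B and C on its brighter probe set. The KO arrays lay well below the Het arrays and close to each other. The difference was -1.11 ± 0.16 (SE of the limma fit, n = 3 arrays per group), a level 2.16-fold lower in KO. On the second Egr2 probe set the arrays read 2328, 2049 and 2235 in KO and 3400, 3533 and 4379 in Het, a difference of -0.77 ± 0.12. The groups were separated there as well, with a smaller difference than on the brighter probe set.

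Sequence before the transcription start is shown for Egr2 and Npas4, which were lower in KO, and for Nr4a1, whose groups overlapped. These are the 250 bases that end at the base before the start, in RefSeq's GRCm38.p6 annotation and read 5′ to 3′ along the gene. The Egr2 window shown is chr10:67537619-67537868 on the plus strand. That of Npas4 is chr19:4989972-4990221 on the minus strand and that of Nr4a1 is chr15:101266596-101266845 on the plus strand. Capitals mark matches on either strand to the CArG box bound by serum response factor, to TGACG, the core of the element bound by CREB, and to the Egr sites GCGTGGGCG and GCGGGGGCG, and no matches overlap.
Egr2: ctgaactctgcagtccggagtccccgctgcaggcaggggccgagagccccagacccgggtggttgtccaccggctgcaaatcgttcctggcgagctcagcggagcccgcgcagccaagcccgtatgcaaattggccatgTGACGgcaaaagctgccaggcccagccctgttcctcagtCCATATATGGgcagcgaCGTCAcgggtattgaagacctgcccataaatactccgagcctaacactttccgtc
Npas4: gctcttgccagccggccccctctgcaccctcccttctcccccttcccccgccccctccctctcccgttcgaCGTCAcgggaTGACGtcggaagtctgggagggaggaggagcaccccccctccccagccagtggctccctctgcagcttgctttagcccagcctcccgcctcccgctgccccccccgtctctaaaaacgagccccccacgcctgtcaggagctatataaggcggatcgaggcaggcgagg
Nr4a1: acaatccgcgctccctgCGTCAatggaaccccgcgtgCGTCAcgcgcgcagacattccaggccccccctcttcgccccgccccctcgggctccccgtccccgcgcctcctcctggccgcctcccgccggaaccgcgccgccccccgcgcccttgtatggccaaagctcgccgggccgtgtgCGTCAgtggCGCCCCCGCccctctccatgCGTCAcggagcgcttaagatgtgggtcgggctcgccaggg
Of the 5 Egr2 windows, the one shown is the first that holds both a CArG box and TGACG, so their presence in it was fixed by that choice. Its CArG box lies 72 to 63 bases before the start. Of all 32851 promoter windows of this length, 1.47% hold a CArG box. Among the 6 members searched (Egr2, Npas4, Nab2, Nr4a1, Nr4a2 and Nr4a3), it was found in Egr2 alone. It was in 4 of the 5 Egr2 windows, several of which share most of their bases. TGACG was found in 7 of the 10 windows of these genes, among them 3 of the 5 windows of Egr2, while the Nab2 window has none, and in 17.8% of all windows. An Egr site was found in Nr4a1, and 3.06% of all windows hold one. Npas4 and Nab2 were lower in KO as well and had no CArG box. Egr1, Egr3, Cd83 and Cd69 were not searched, so whether they hold one is not known here. Egr1 is among the members whose groups overlapped, so the search cannot tie a CArG box to a lower level in KO. A match is a run of letters and not evidence of binding.

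Egr3, the closest relative of Egr2 in this set, read 6397, 5734 and 6541 in KO and 9509, 9465 and 10113 in Het. Each group was tight, and the groups did not overlap. The difference was -0.64 ± 0.09, or 1.56-fold lower in KO. The other Egr3 probe set lay between 15.8 and 21.0 on all arrays, below every array's median, and gave -0.20 ± 0.10.

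Nab2 encodes a corepressor that binds Egr proteins and is itself an Egr target. It read 1677, 1781 and 2337 in KO and 3285, 3073 and 4354 in Het. All KO arrays were below all Het arrays, and the C array was the highest of each group. The difference was -0.88 ± 0.19, a 1.85-fold lower level in KO.

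Egr1 stood apart from its relatives. It read 4775, 3482 and 9602 in KO A, B and C and 5743, 5376 and 7823 in Het A, B and C. KO C was the highest array of all and KO B the lowest, so the KO range enclosed the Het range. The difference was -0.20 ± 0.39, and it was 0.12 without KO B and -0.61 without KO C, so its sign depends on single KO arrays.

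Npas4, a transcription factor of the bHLH-PAS family best known from neurons, where activity induces it, was near the dim end of the range in KO. It read 18.2, 13.4 and 12.2 in KO and 192.5, 506 and 526 in Het. The KO arrays lay below the arrays' medians of 58.1 to 61.5, and the Het arrays lay above them. The fitted difference was -4.69 ± 0.43, or 25.9-fold lower in KO, and its size depends on how GCRMA sets the floor of dim probe sets. The probe set passed the filter through all 3 Het arrays and 1 KO array, and it is the gene's single probe set. Its Het arrays varied widely, with an SD of 0.82 on the log2 scale.

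The Nr4a genes did not separate the genotypes. Nr4a1, known as Nur77 and used as a reporter of antigen receptor signal strength, read 4782, 3218 and 10082 in KO A, B and C and 3386, 4621 and 6146 in Het A, B and C. KO C was the highest of the 6 arrays and KO B the lowest. The difference of 0.23 ± 0.46 was smaller than its error, and it was -0.22 without KO C.

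Nr4a2 read 412, 175 and 1778 in KO and 298, 419 and 496 in Het on its brightest probe set. KO C stood 6.62-fold above the mean of KO A and KO B taken on the log2 scale, while KO B lay below every other array. The difference was 0.35 ± 0.84 with all arrays and -0.56 without KO C. KO C was also the highest array on the other 4 tested Nr4a2 probe sets, whose differences of 0.22 to 0.92 all turned negative without it.

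Nr4a3 read 1080, 959 and 2850 in KO and 1456, 1514 and 2219 in Het. The 2 lowest arrays were both KO and so was the highest. Its difference was -0.24 ± 0.45, and it was 0.048 without KO B. The 2 other Nr4a3 probe sets read under 6 on every array.

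**Figure D2:**
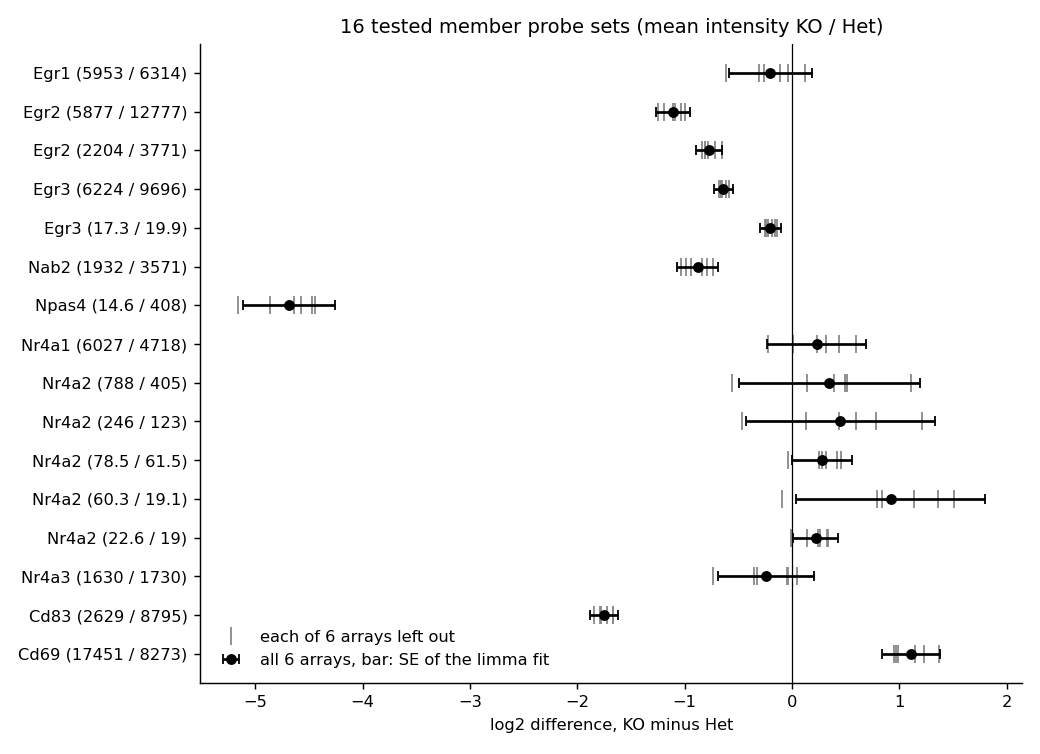
Log2 difference, KO minus Het, of the 16 tested member probe sets (dots, with the SE of the limma fit) and the same difference with each of the 6 arrays left out (grey ticks), with the mean KO and Het intensities beside each name. Egr2, Egr3, Nab2, Npas4 and Cd83 stay below 0 and Cd69 above 0 whichever array is left out, while Egr1 and the Nr4a genes cross 0.

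Cd83 encodes a surface protein of the immunoglobulin superfamily that marks activated dendritic cells, B cells and T cells, regulatory T cells among them. It read 2521, 2349 and 3017 in KO and 8392, 8230 and 9762 in Het. The highest KO array was well below the lowest Het array. The difference was -1.75 ± 0.13, a 3.35-fold lower level in KO, and it stayed between -1.85 and -1.67 when each array was left out. The spread within a group was small, with an SD of 0.19 in KO and 0.13 in Het on the log2 scale.

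Cd69 went the other way. It read 16260, 14583 and 21511 in KO A, B and C and 11512, 6739 and 6568 in Het A, B and C. All KO arrays lay above all Het arrays, though Het A was closer to KO B than to the other Het arrays in log2 value. The difference was 1.11 ± 0.27, a 2.16-fold higher level in KO. Cd69 and Cd83, both surface proteins induced on activation, thus differed between the genotypes in opposite directions.

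The members also shared a pattern across the arrays of a group. KO C was the highest KO array for 8 of the 10 genes and Het C the highest Het array for 9, while over all tested probe sets KO C was highest in 26.4% and Het C in 34.3%. KO B was the lowest KO array for 8 of the 10, against 33.0% of all probe sets. The departures of KO C from the mean of KO A and KO B differed in size among the members. They were 1.24 for Egr1, 1.36 for Nr4a1, 2.73 for Nr4a2 and 1.49 for Nr4a3, and departures as large as that of Egr1 were found in 1.15% of all tested probe sets. For Egr2, Egr3 and Cd83 the same measure was -0.01, 0.11 and 0.31. The members that overlapped between genotypes were therefore those that varied most among the KO arrays.

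**Figure D3:**
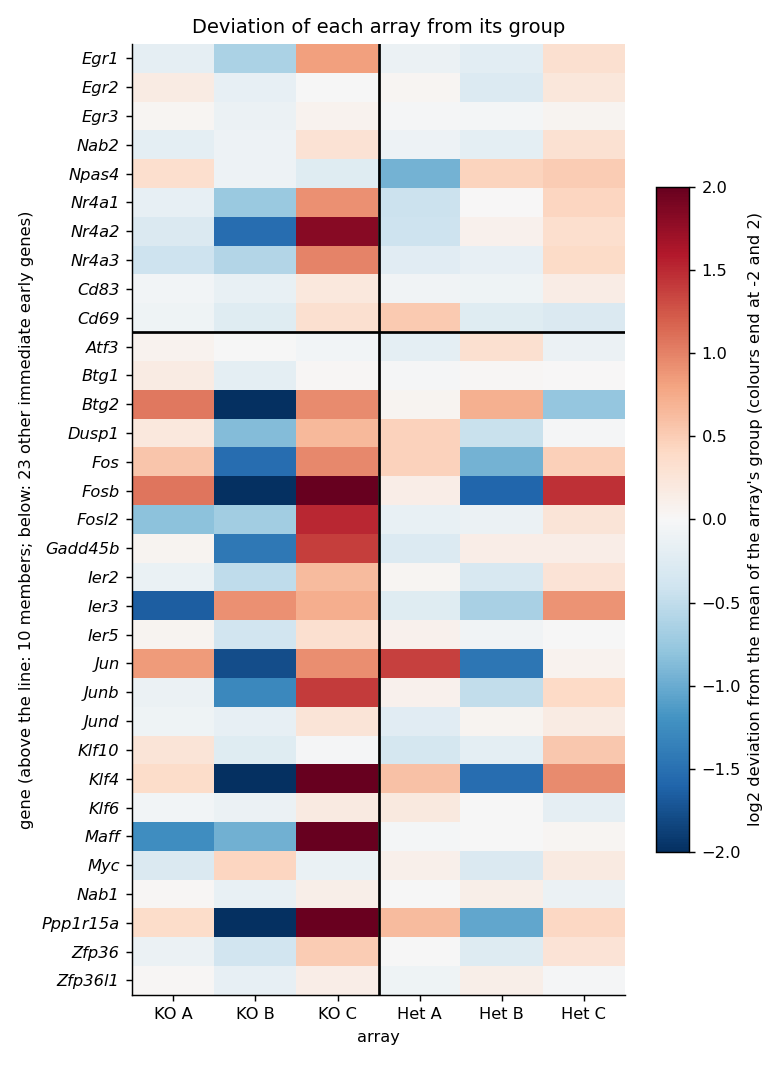
Deviation of each array (columns, 3 KO and then 3 Het) from the mean of its own group on the log2 scale, by colour, for the 10 members above the line and 23 other immediate early genes below it. KO C is the reddest KO column and KO B the bluest for Egr1, the Nr4a genes, Fos, Fosb, Junb, Klf4 and Ppp1r15a, while Egr2, Egr3 and Cd83 are pale throughout.

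The defining markers of CD4 T cells were present on all arrays. Of 8 markers of CD4 T cells and regulatory T cells 7 had a probe set and all 7 passed the filter, and their summed intensities were 108576 to 124386 in KO and 126111 to 128809 in Het, so the KO sums lay below the Het sums. The 7 markers did not all move this way. Every KO array lay above every Het array for 1 (Cd2) and below for 2 (Cd3d and Cd3g), and the groups overlapped for 4. Limma called 0, with 1 higher and 1 lower in KO before adjustment at a p under 0.05. The part of the difference between the sums in the members' values was not tested. Foxp3 read 5453, 9417 and 5420 in KO A, B and C and 9960, 8945 and 9769 in Het A, B and C.

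Cd83 is also a marker of mature dendritic cells and of B cells, so the markers of these cells were measured. For B cells 7 of 9 markers with a probe set passed the filter, with Cr2 and Pax5 below it, and the summed intensities of all 9 were 2679, 5941 and 2420 in KO and 1416, 3513 and 1360 in Het. The B array was the highest of each group, and the groups overlapped. For dendritic cells and phagocytes 7 of 11 passed, with Cd14, Itgam, Itgax and Xcr1 below the filter, and the sums over all 11 were 5565 to 7534 in KO and 3392 to 5052 in Het. Cst3 alone gave 4800 to 6377 in KO and 2786 to 4385 in Het, and without it the sums overlapped, at 765.5, 2031 and 1004 in KO and 605.9, 925.3 and 666.8 in Het. Of the other tested markers, Lyz2 gave 2.09, Adgre1 0.22 and Csf1r 0.06, while Siglech gave -0.33, Flt3 -0.06 and Zbtb46 -0.01. Lyz2 read 231.6, 1408 and 440.8 in KO A, B and C and 50.6, 381.4 and 97.4 in Het A, B and C, so its groups overlapped. Of the 7 tested markers in each of these lists 0 were called by limma, with 1 higher in KO in each list before adjustment at a p under 0.05. The part of these cells in the Cd83 values was not tested. CD8 T cell markers (2 of 2 tested) summed to 670, 4415 and 636 in KO and 909, 2257 and 651 in Het, and NK cell markers (2 of 3 tested, Ncr1 below the filter but in the sum) to 122, 1652 and 120 in KO and 102, 599 and 115 in Het. In both of these lists the B arrays stood above the rest of their group, and their part in the members' array pattern was not tested.

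Other genes around the antigen receptor response were taken as 5 lists without regard to how they moved, although earlier results of these data were known. Of 86 such genes measured, 3 rose and 2 fell in KO (limma, adjusted p under 0.05), against 1.37% and 0.956% of all 13280 genes (2.33% in either direction). The 3 that rose and the 2 that fell came from the later induced genes and from those reported downstream of Egr2 or Egr3. No gene of the other 3 lists was called.

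Of 23 other immediate early genes 0 passed (limma, with 4 genes higher and 1 gene lower before adjustment at a p under 0.05). Their median difference was 0.74 and 19 of 23 were positive, while 43.4% of all genes were. KO C was the highest of all 6 arrays for 16 of the 23, against 14.2% of all tested probe sets. The median difference was 0.39 without KO C. Nab1, a corepressor of Egr proteins like Nab2, read 5146 ± 472 in KO and 3574 ± 289 in Het (SD, n = 3; difference 0.52 ± 0.11; limma, adjusted p = 0.0794). Its value is of opposite sign to that of Nab2. Zfp36l1, an RNA-binding protein that promotes decay of AU-rich messenger RNAs, gave -0.46 ± 0.11 (limma, adjusted p = 0.103).

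Among 11 brakes that antigen receptor signals induce, 0 passed (limma, with 4 genes higher and 1 gene lower before adjustment at a p under 0.05) and the median was 0.26. The MAP kinase phosphatases Dusp2 and Dusp5 gave 0.95 ± 0.22 and 0.81 ± 0.19, with adjusted p of 0.0988 and 0.105 (limma). Dusp2 read 12502, 8696 and 14785 in KO and 6988, 5478 and 5792 in Het, so its groups were separated in the direction opposite to Egr2. The signalling proteins and factors upstream of the early genes lay closest together of the 5 lists. Of 20 measured 0 passed (limma, with 2 genes higher and 1 gene lower before adjustment at a p under 0.05), the median was -0.01 and the values lay between -0.63 and 0.37. Elk3, a partner of serum response factor, gave the lowest (-0.63 ± 0.18; limma, adjusted p = 0.148), and Ppp3cb, a catalytic subunit of calcineurin, the highest (0.37 ± 0.12; adjusted p = 0.182).

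Of 19 later genes of the antigen receptor response measured, 2 fell, 0 rose and 17 did not pass (limma, with 8 genes higher and 5 lower before adjustment at a p under 0.05), with a median of 0.20. Pdcd1, the inhibitory receptor PD-1, read 1021, 1237 and 1125 in KO and 2122, 2719 and 2870 in Het (-1.18 ± 0.15; limma, adjusted p = 0.0302). Tox, an HMG box protein of developing and chronically stimulated T cells, read 5507, 3986 and 4610 in KO and 10838, 9483 and 10083 in Het (-1.12 ± 0.14; limma, adjusted p = 0.0302). Both were separated between the groups as Egr2 and Cd83 were. Of the other Tox probe sets one fell (-1.06; limma, adjusted p = 0.0243) and one gave -0.83 (adjusted p = 0.0709).

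Of 17 genes reported downstream of Egr2 or Egr3, 3 rose, 0 fell and 14 did not pass (limma, with 7 genes higher and 3 lower before adjustment at a p under 0.05), with a median of 0.50. The lowest was Nrn1, at -2.17 (adjusted p = 0.0736), and Ndrg1 gave -1.03 (adjusted p = 0.0664; limma for both, named after their values were seen). Socs3, an inhibitor of cytokine signalling, was 3.87-fold higher, at 21375 ± 3530 in KO and 5535 ± 956 in Het (SD, n = 3; limma, adjusted p = 0.0222). Its other tested probe sets were 6.14-fold and 3.32-fold higher (limma, adjusted p of 0.0222 and 0.0297). Sema7a, a membrane-anchored semaphorin, read 654, 808 and 500.3 in KO and 157, 198 and 163 in Het, a 3.74-fold difference (limma, adjusted p = 0.0247). Cdkn1a, the cell cycle inhibitor p21, read 661, 646 and 1017 in KO and 131, 236.5 and 180.5 in Het (4.27-fold; limma, adjusted p = 0.0369), and its other probe set gave 1.91 with an adjusted p of 0.0501.

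**Figure D4:**
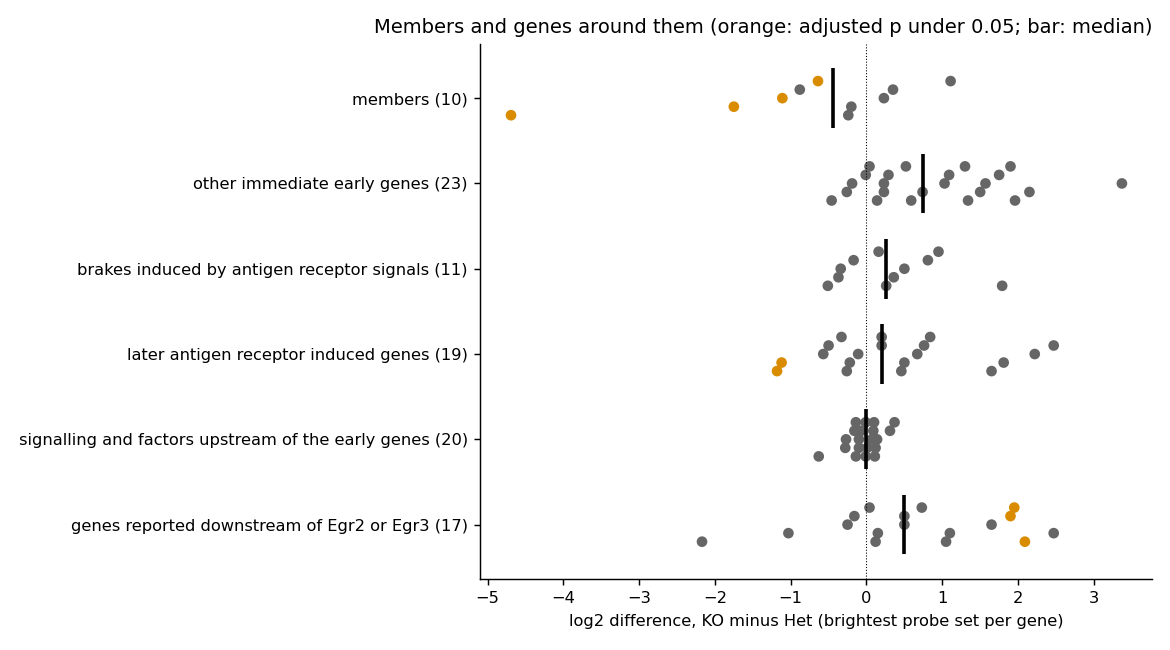
Log2 difference, KO minus Het, of the brightest probe set of each gene (dots) for the 10 members and for the 5 lists around them, with each list's median as a bar and genes with an adjusted p under 0.05 in orange. The members' median is -0.44, the other immediate early genes lie mostly above 0, and the upstream signalling genes gather around 0.

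Genes whose levels followed Cd83, Npas4 or Egr2 across the 6 arrays were ranked by Pearson's r among 12416 other genes. With 3 arrays on each side, a high r mostly reflects a difference between the genotypes, and no test was made. For Cd83 207 genes had an r over 0.95, and the nearest were Uqcrh, a subunit of respiratory complex III, Rfk, which encodes riboflavin kinase, Eif1b, Zfp14 and Dnajc12, with r of 0.997 to 0.993. Their own differences were smaller than that of Cd83, between -0.29 for Uqcrh and -1.10 for Dnajc12. For Npas4 152 genes had an r over 0.95, led by Bmyc, Poglut1, Lsp1, Niban1 and Eef1akmt1 (r of 0.996 to 0.989). Niban1 had the largest difference of these, at -1.23, against -4.69 for Npas4. For Egr2 187 genes had such an r, led by Esyt2, Zfp12, Arhgap29, Ncbp2 and Coa6 (r of 0.998 to 0.996). Arhgap29 read 31.6, 26.3 and 29.1 in KO and 73.0, 55.1 and 86.7 in Het, and its difference of -1.28 was the one nearest in size to that of Egr2.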

How the data were processed

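The deposited intensities were made by the authors with GCRMA, per the labels, which name no software version. They are on a linear scale, so log2 was taken. The table has 45101 probe sets. Affymetrix controls (64) and 1 incomplete probe set were dropped, and the 29507 with a log2 above 4 on at least 3 of 6 arrays entered the fit. The platform annotation supplied gene symbols. The comparison of KO with Het used limma 3.58.1 under R 4.3.3 (lmFit, eBayes, two-sided, without covariates), with p-values adjusted after Benjamini-Hochberg over the whole fit and a threshold of 0.05. For a gene with several probe sets the brightest stood for it. The steps were tested in 5 simulations with 200 changed probe sets each. They recovered 7.6% of changes of 0.5 on the log2 scale, 42% of 1, 79.6% of 2 and 84.4% of 3. A gene that did not pass can therefore still differ. All members are named, with up to 4 genes past the threshold per list, or 2 by smallest p where 0 passed. The members, lists and tests were chosen with earlier results of these data known. Genes named in the caption of the array deviations, Foxp3 and those of the closing section were picked after their values were seen. The labels do not say whether equal array letters mark paired samples, and the main fit did not pair them. Deviations from the group means correlated at 0.283, -0.171 and 0.012 for A, B and C. With 3 arrays per group these values cannot settle whether a letter marks a pair. Promoter windows are RefSeq's, searched with Python 3.11.15. Alternatives were other filters, normalizations and moderation, array weights, the letter as a block, averaging over a gene's probe sets and leaving out arrays.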

Additional observations from a re-analysis of the deposited data

How the results depend on the processing

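The whole-table count of 525 stayed within 1.5 times under the other filters, quantile normalization, median centring and the trended robust fit (415 to 721), but array weights gave 957. Called member probe sets were 3 to 5 under these and under array weights, and called genes of the lists around them 4 or 5, but 8 with array weights and 8 with averaging over a gene's probe sets. Each array left out in turn gave 0 to 176 probe sets, 0 to 2 member probe sets and 0 to 2 list genes. With the replicate block limma called 0 probe sets (5365 at an unadjusted p under 0.05), 0 member probe sets (7) and 0 list genes (38). Without both B arrays, a setting added after seeing the data, it called 0 (5274), 0 (7) and 0 (42). The sign changed for members with overlapping groups. With each array left out in turn, Egr1 gave -0.61 (without KO C) to 0.12 (without KO B), and 0.015 without both B arrays. Nr4a3 gave -0.74 to 0.048 on the same arrays. Nr4a1 gave -0.22 (without KO C) to 0.60 (without KO B), and the Nr4a2 probe sets in order of brightness gave -0.56 to 1.11, -0.47 to 1.21, -0.039 to 0.46, -0.097 to 1.51 and -0.0062 to 0.33, each lowest without KO C. The cause was not tested. With 3 arrays a group precision is limited, and the dim KO signal of Npas4 makes its fold uncertain.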

Other observations

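Several immediate early genes outside the set varied widely between the arrays of a group. Fosb, a subunit of the AP-1 factor, read 1204, 50.3 and 3097 in KO A, B and C and 141, 43.0 and 355 in Het A, B and C. Klf4, a Kruppel-like factor, read 764, 112 and 2405 in KO and 227, 52.8 and 294 in Het. Ppp1r15a, a stress-induced phosphatase regulator, read 4541, 693 and 13822 in KO and 2155, 671 and 1843 in Het. In each of these 3 genes the B array was the lowest of both groups and KO C the highest of all. Both B arrays were the lowest of their groups for 10 of the 23 other immediate early genes and for 4 of the 10 members, against 12.2% of all tested probe sets. Egr2 was one of these 4 members, at 5239 in KO B and 10506 in Het B. Its separation of the genotypes was known when it was chosen. Ier3, another immediate early gene, read 98.9, 585 and 515 in KO and 25.4, 19.1 and 56.1 in Het, and its difference of 3.37 ± 0.80 was the highest of that list without passing the test (limma, adjusted p = 0.104).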
